A study of Eonycteris spelaea and Mus musculus with 51 samples.

Results

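The count table of the cave nectar bat Eonycteris spelaea holds 564 rows whose names end in _AS, of 30017 rows in all (1.88%). They were chosen by that suffix alone, with no measured value used. Of the 564 names, 534 carry a human Ensembl gene identifier and 30 a mouse one. For 499 of them the table also has a row with the same identifier and no suffix, called the sense row here, and for 65 it does not. The files do not define the suffix. It is read here as antisense, and whether the reads of an _AS row come from the strand opposite its sense row was not tested.

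Bat blood, lung and muscle were each sampled at 3 conditions, with 3 libraries per tissue and condition and 27 bat libraries in all. Control bats were taken at baseline with no treatment, heat bats immediately after 1 h of heat shock to the living animal, and recovery bats 4 h after a heat shock of 1 h. The labels give no strain, age or sex, and no untreated bats at the later times, so heat cannot be told apart from handling or time of day. The labels do not say which libraries came from the same animal, and p-values measure only the spread between these libraries. The 24 mouse libraries of the series are not used here.

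Antisense transcripts are RNAs made from the strand opposite a gene, often starting near its promoter or running in from a neighbouring gene that faces it. Some stay in the nucleus and act on the chromatin or splicing of the gene they overlap, some pair with its mRNA, and many have no known role. Heat shock is known to make RNA polymerase II run past the ends of many genes in cultured mammalian cells, which can put reads on the strand opposite a neighbour. No sequence is shown because no bat genome or annotation was used here, so the position of these rows, and whether they lie over exons, introns or promoters, is not given.

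Library totals were 12.5 to 21.7 M counts in blood, 9.29 to 21.7 M in lung and 24.7 to 33.3 M in muscle. Lung control 3, at 9.29 M, was the shallowest library. Levels are CPM, counts relative to the library's total as edgeR's cpm function gives them, scaled by edgeR's trimmed mean of M values (TMM) over the 27 bat libraries. The TMM factors were 0.878 to 1.27 in blood, 1.53 to 1.74 in lung and 0.558 to 0.661 in muscle. Row lengths are unknown, so levels of different rows, an _AS row and its sense row included, are compared as reads and not per length. None of the 27 tissue markers set for this work could be matched by symbol, and the tissue labels were checked only on 8 rows named as T cell receptor alpha variable segments. These summed to 1.68 to 13.1 CPM in blood, 0.871 to 5.77 in lung and 0 to 0.130 in muscle.

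Most _AS rows were silent or close to it. No read fell on 202 of the 564 in any of the 27 libraries (35.8%), against 14.1% of all other rows and 23.8% of the sense rows of the pairs. A further 99 held 1 to 9 reads in all, 119 held 10 or more but under 10 per library on average, and 144 held 10 or more per library. Among the 499 pairs, 282 had reads on both rows, 41 on the _AS row alone, 98 on the sense row alone and 78 on neither. The filter on low counts kept 139 _AS rows in blood, 159 in lung and 106 in muscle. It kept 176 in any tissue, of which 94 passed in all 3 tissues, 40 in 2 of them, 25 in lung alone, 17 in blood alone and 0 in muscle alone. The other 388 were tested in no tissue.

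The 30 _AS rows with a mouse identifier are the only ones that a reference table pairs with gene symbols, and none of them passed the filter. Of these 30, 14 bear the name of an olfactory receptor, the odorant-sensing membrane proteins of the nose, and 12 of those 14 had no read. The predicted gene Gm19684 had 76 reads on its _AS row over the 27 libraries, 24 of them in blood, 49 in lung and 3 in muscle, against 57791 on its sense row. The row 4933414I15Rik had 90 _AS reads and 57 sense reads, and Gm14419 had 37 and 50. Mup7, a major urinary protein gene, had 8 _AS reads, all in muscle, and 178 sense reads. The human identifiers are not paired with gene names in the files or reference tables used here, so the rows below are given by identifier and nothing is said of what their genes do.

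The _AS rows together took a small share of each library's raw counts, and a smaller one in muscle. In blood control the share was 0.317, 0.356 and 0.260% of counts (mean 0.311 ± 0.0483, SD, n = 3). In lung control it was 0.256, 0.254 and 0.315% (0.275 ± 0.0346, n = 3), and in muscle control 0.0779, 0.0679 and 0.0652% (0.0703 ± 0.00671, n = 3). Over all 9 libraries of each tissue, muscle ranged from 0.0550 to 0.0779%, lung from 0.248 to 0.315% and blood from 0.219 to 0.468%. Every muscle library thus lay below every lung and blood library. The sense rows were lower in muscle as well, at 0.317 ± 0.0200% of counts in control against 0.946 ± 0.0483% in lung and 1.02 ± 0.147% in blood (SD, n = 3). The shares leave out the TMM factors, which were 0.558 to 0.661 in muscle, 1.53 to 1.74 in lung and 0.878 to 1.27 in blood. On the TMM scale muscle control was lower too, over the 147 _AS rows tested across the control tissues. Their median log2 difference was 1.16 for lung over muscle and 0.49 for blood over muscle, against 0.54 and -0.02 for all rows. The _AS rows tested in each tissue had medians of 3.46 CPM in muscle control, 2.16 in lung and 2.67 in blood. Those are different sets of 106, 159 and 139 rows, so their medians do not rank the tissues.

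With all _AS rows counted, the conditions overlapped in these shares in every tissue, except for lung heat and lung recovery. Blood held 0.270 ± 0.0540% at heat and 0.361 ± 0.0936% at recovery, lung 0.252 ± 0.00594% and 0.282 ± 0.00808%, and muscle 0.0636 ± 0.00309% and 0.0635 ± 0.00773% (SD, n = 3 each). The 3 lung recovery libraries, at 0.281, 0.291 and 0.275%, lay above the 3 lung heat libraries, at 0.248, 0.249 and 0.259%. The recovery set lay inside the range of lung control, and the heat set overlapped its lower end. No test was set for the shares.

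**Figure D1:**
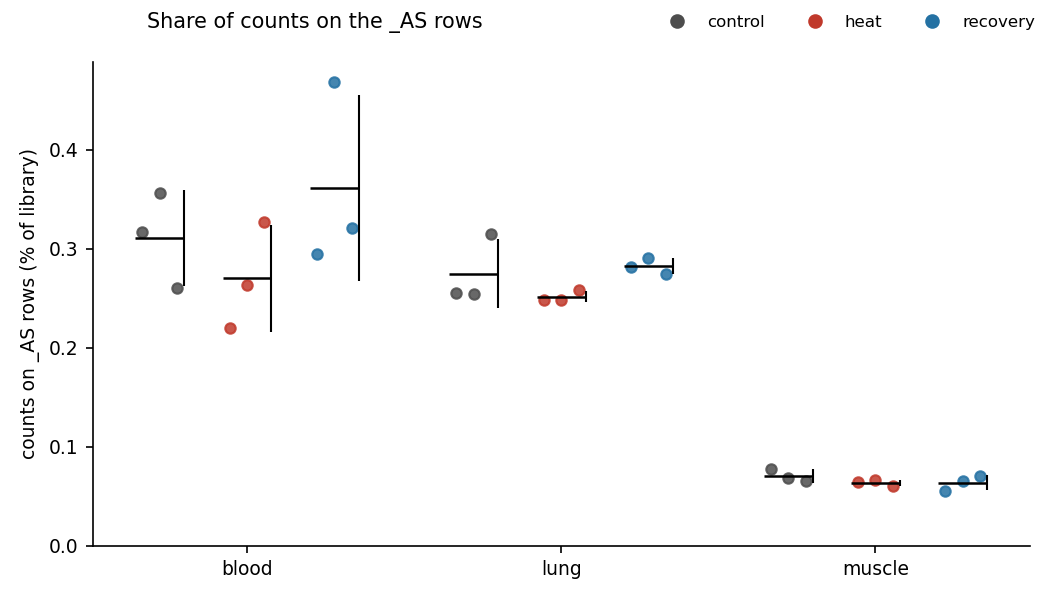
Percent of each library's counts on the 564 _AS rows (vertical axis) by tissue (horizontal axis), with 1 point per library coloured by condition, a horizontal bar at the mean and a vertical bar of 1 SD (n = 3). The 9 muscle libraries sit between 0.0550 and 0.0779%, below all blood and lung libraries.

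A few rows carried much of this signal, above all in blood. ENSG00000101307_AS alone held 19.1 to 53.6% of a blood library's _AS reads, 1.84 to 3.60% of a lung library's and 0.343 to 1.12% of a muscle library's. The 5 most read rows of a library made up 52.6 to 72.0% of its _AS reads in blood, 23.2 to 38.5% in lung and 31.9 to 41.0% in muscle. Without ENSG00000101307_AS the share was 0.215, 0.165 and 0.201% in blood control, 0.171, 0.213 and 0.206% in blood heat and 0.238, 0.347 and 0.256% in blood recovery. The 3 blood recovery libraries then lay above all control and heat libraries, which they did not with that row counted. The blood means without it were 0.194 ± 0.0256, 0.197 ± 0.0224 and 0.280 ± 0.0582% (SD, n = 3).

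ENSG00000101307_AS was read at 904, 2174 and 639 CPM in the blood control libraries, at 54.5, 34.4 and 33.2 in lung control and at 13.9, 7.24 and 7.38 in muscle control. The 3 tissues do not overlap, and blood control 2 stands well above the other blood controls. Its sense row was much lower, at 85.6, 110 and 12.6 CPM in blood control. Over all libraries 93.7% of the pair's reads lay on the _AS row, and in single libraries 88.4 to 100%.

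The next rows in blood control were, on average, below their sense rows. ENSG00000179144_AS had 214, 163 and 536 CPM (sense row 520, 106 and 669). ENSG00000126561_AS had 185, 228 and 165 CPM (sense row 640, 1001 and 526). Its spread was small beside that of ENSG00000179144_AS, and the _AS libraries lie below all 3 sense libraries. ENSG00000100393_AS had 130, 180 and 153 CPM, and ENSG00000008438_AS 135, 172 and 146. By mean level the order was thus ENSG00000101307_AS, ENSG00000179144_AS, ENSG00000126561_AS, ENSG00000100393_AS and ENSG00000008438_AS, and from the second to the fifth each overlaps its neighbour in the order.

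In lung control the order by mean was set in part by 1 library. ENSG00000277157_AS had 50.3, 62.6 and 273 CPM and ENSG00000278705_AS 39.9, 40.9 and 139, both highest in lung control 3, the shallowest library. Their sense rows were also highest there, at 76.2, 74.3 and 356 CPM and at 43.4, 35.3 and 189. ENSG00000100393_AS was even, at 104, 103 and 104 CPM. ENSG00000149806_AS had 94.5, 35.5 and 96.5 CPM, and ENSG00000203950_AS 66.4, 64.3 and 83.4.

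Muscle control shared ENSG00000149806_AS (120, 45.3 and 160 CPM) and ENSG00000203950_AS (98.3, 95.3 and 44.3) with lung among its 5 highest rows. ENSG00000198205_AS had 67.2, 68.3 and 92.8 CPM and ENSG00000126561_AS 72.6, 57.8 and 66.0. The fifth, ENSG00000213967_AS, had 77.0, 57.9 and 39.7 CPM in muscle control, 48.3, 51.4 and 37.3 in lung control and 19.0, 17.8 and 16.2 in blood control, while its sense row had no read in any of the 27 libraries. These 5 overlap in muscle, each with its neighbour in the order.

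At 1 CPM or more on average, 101 _AS rows were read in blood control, 112 in lung control and 88 in muscle control, and at 10 CPM or more 34, 40 and 19. The tested _AS rows, a different set in each tissue, had a median of 2.67 CPM in blood control, 2.16 in lung control and 3.46 in muscle control. Their sense rows had medians of 8.40, 5.51 and 8.18 CPM.

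**Figure D2:**
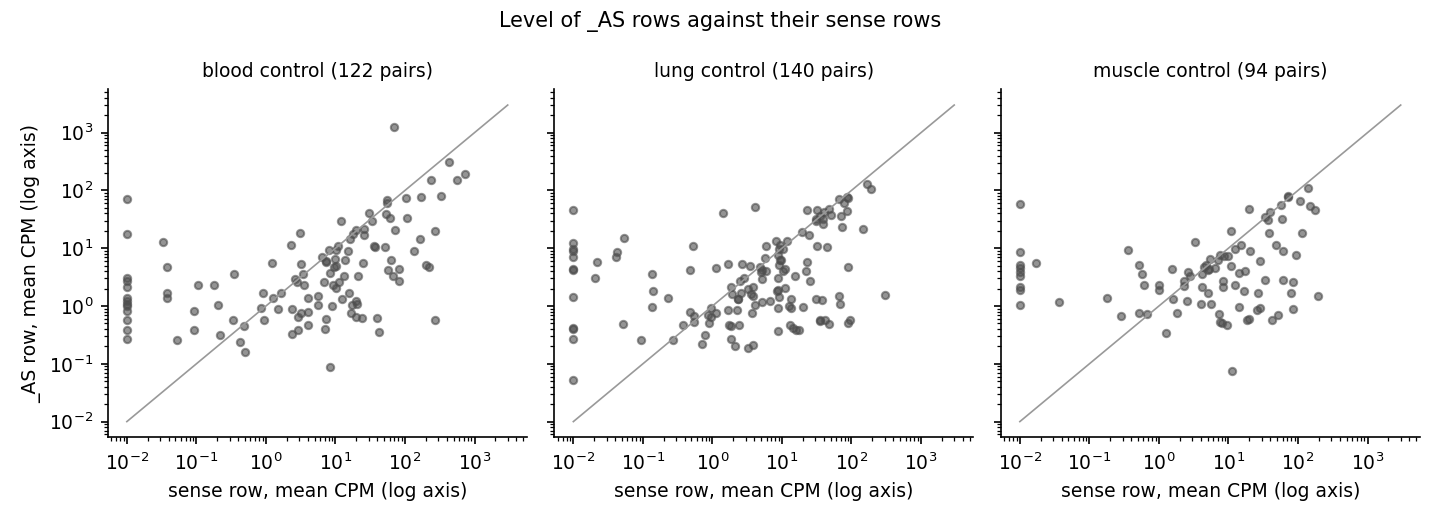
Mean CPM of each tested _AS row (vertical, log axis) against its sense row (horizontal, log axis) in the 3 control libraries of each tissue, for 122 pairs in blood, 140 in lung and 94 in muscle, with the line of equal level. Means under 0.01 CPM are drawn at 0.01 (13, 12 and 9 sense rows), and most points lie below the line.

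How reads divided between the partners differed widely from pair to pair. Over the 144 pairs with a tested _AS row and reads on both rows, the _AS row took a median of 32.0% of the pair's reads (quartiles 11.8 and 52.5%). It had more reads than its sense row in 42 of the 144, under 10% of the pair's reads in 31, 40 to 60% in 36 and over 90% in 10. At control the median was 31.4% in blood (128 pairs of 30 or more reads), 34.8% in lung (136) and 29.9% in muscle (109).

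A few pairs were close to even. ENSG00000241258_AS had 25062 reads over all libraries and its sense row 24907, and the _AS row took 50.0 to 50.8% of the pair's reads in each of the 27. ENSG00000185201_AS had 3231 reads against 3213. ENSG00000203852_AS had 5695 against 5397, and took 50.0 to 57.1% of the pair's reads. Among 95 pairs with at least 20 reads in 20 or more libraries, these 3 had a mean squared difference below counting error, at 0.0412, 0.0351 and 0.831 times the counting variance. Counting error alone gives 1 for separate rows of the same level. For ENSG00000241258 and ENSG00000185201 the difference was within counting error in every library of 20 or more reads, and for ENSG00000203852 in 25 of 27. The strand setting of the counting is not stated, and whether such rows share their reads was not tested.

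Across the control tissues about 50% of the _AS rows differed, a smaller share than of all rows in each of the 3 comparisons, and that gap itself was not tested. Lung and muscle control were compared over 147 _AS rows in edgeR (quasi-likelihood), with p adjusted by Benjamini-Hochberg over all rows. At an adjusted p under 0.05, 60 were higher and 8 lower in lung, 46.3% of the _AS rows, against 55.3% of all 18822 rows tested (34.9% higher and 20.4% lower). The median log2 difference, lung over muscle, was 1.16 for the _AS rows and 0.54 for all rows. In blood against lung 30 were higher and 41 lower in blood (48.3%, against 55.6% of all rows, 22.7% higher and 32.9% lower), with medians of -0.53 and -0.29. In blood against muscle 52 were higher and 25 lower in blood (52.4%, against 64.9% of all rows, 30.8% higher and 34% lower), with medians of 0.49 and -0.02. The 3 comparisons share their libraries. In bulk tissue, fewer cells of a type and less RNA per cell cannot be told apart.

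ENSG00000008438_AS was read in blood (135, 172 and 146 CPM) and lung (15.2, 2.18 and 33.2) and not in muscle control (0, 0 and 0). It was at least 2810-fold higher in blood and at least 314-fold higher in lung than in muscle, with a floor of 3 counts over the 3 muscle libraries. Its sense row was also at 0 in all 3 muscle controls. ENSG00000168995_AS had 12.7, 12.1 and 18.5 CPM in blood control and 0 in muscle control, at least 269-fold higher. ENSG00000243955_AS had 7.72, 16.1 and 7.66 CPM in lung control against 0.103, 0.123 and 0.0498 in muscle (log2 difference 6.76, SE 0.89, edgeR adjusted p = 0.000128).

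ENSG00000135424_AS marked muscle, at 25.1, 15.0 and 14.5 CPM against 1.91, 1.25 and 0.803 in lung control and 0, 0 and 0 in blood control. The log2 difference of lung from muscle was -3.78 (SE 0.50, edgeR adjusted p = 0.000315), and blood was at least 337-fold lower than muscle. Its sense row had the same order, at 166, 92.0 and 89.3 CPM in muscle, 20.3, 11.8 and 8.40 in lung and 0.134, 0 and 0.281 in blood. ENSG00000172236_AS had 16.0, 10.2 and 7.28 CPM in muscle, 12.0, 3.49 and 3.64 in lung and 0 in blood control, at least 206-fold lower in blood than in muscle and at least 118-fold lower than in lung. ENSG00000196344_AS had 33.0, 55.1 and 39.2 CPM in lung control and 0.0448, 0 and 0.112 in blood (log2 difference, blood over lung, -9.46, SE 0.62, edgeR adjusted p = 1.18e-06). It too was close to its sense row, with 46.7 to 56.8% of the pair's reads in the libraries with at least 20.

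Blood was the highest tissue for ENSG00000101307_AS, given above (log2 difference from lung 4.94, SE 0.54, edgeR adjusted p = 2.91e-05), and for ENSG00000188056_AS. The latter had 0.807, 3.85 and 1.52 CPM in blood control against 0, 0 and 0.0618 in lung. ENSG00000137727_AS was lower in lung (0.389, 0.187 and 1.11 CPM) than in muscle (1.18, 11.1 and 14.6; log2 difference -4.05, SE 1.40, edgeR adjusted p = 0.0307). That call was lost in 4 of the 9 fits that left out a control library, with adjusted p up to 0.0943.

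Where both partners were tested, an _AS row mostly differed between tissues in the direction of its sense row. Of the 68 rows called between lung and muscle, 49 had a tested sense row, which was called the same way for 37, the opposite way for 3 and not called for 9. For blood against lung the numbers were 34, 1 and 14 of 49, and for blood against muscle 45, 4 and 8 of 57. Over 112 pairs the log2 differences of the partners correlated with Pearson's r = 0.73 (Spearman's rho = 0.71) for lung against muscle, 0.74 (0.71) for blood against lung and 0.84 (0.74) for blood against muscle. These describe pairs measured in the same libraries, not independent replicates. Near-equal pairs were not left out, and rows that shared reads would agree by that alone, which was not tested.

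The exceptions were clear in single pairs. ENSG00000102316_AS was higher in lung control (11.5, 8.76 and 5.75 CPM) than in muscle (2.94, 2.02 and 1.45), with a log2 difference of 2.01 (SE 0.50, edgeR adjusted p = 0.00653). Its sense row was lower in lung, at 0.0649, 0 and 0.0618 CPM, than in muscle, at 16.4, 3.68 and 4.68 (-7.53, edgeR adjusted p = 0.000144). ENSG00000197647_AS had 2.51, 1.17 and 1.29 CPM in blood control and 0.361, 0.920 and 0.449 in muscle (log2 1.52, SE 0.61, edgeR adjusted p = 0.0481), with its sense row at 0, 0 and 0.112 in blood and 11.5, 96.6 and 17.2 in muscle. ENSG00000197937_AS had 49.0, 61.1 and 42.6 CPM in lung control and 7.57, 6.50 and 7.58 in muscle (log2 2.81, SE 0.40, edgeR adjusted p = 0.000238). Its sense row was lower in lung, at 3.89, 4.40 and 3.89 CPM against 9.38, 8.28 and 7.97 (-1.08, edgeR adjusted p = 0.0274).

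The log2 ratio of an _AS row to its sense row was tested with limma, adjusted by Benjamini-Hochberg over the pairs. Its difference between groups does not depend on row length, though the ratio itself does. Between lung and muscle control the ratio was called for 19 of 112 pairs (17%, 15 higher and 4 lower in lung). It was called between blood and lung for 33 (29.5%, 14 higher and 19 lower in blood) and between blood and muscle for 38 (33.9%, 22 and 16). Some of these pairs had few reads in a tissue, where the prior count of 2 sets the ratio. With at least 30 reads on the pair over the 3 libraries of each tissue, 15, 31 and 30 calls were left.

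ENSG00000185885_AS had 5.06, 3.20 and 5.69 reads per 100 sense reads in blood control, 76.1, 99.6 and 104 in lung and 81.3, 54.8 and 132 in muscle. The log2 ratio was lower in blood than in lung by -4.29 (SE 0.35, limma adjusted p = 0.00013). ENSG00000126561_AS had 29.0, 22.7 and 31.4 reads per 100 sense reads in blood control, 49.4, 45.0 and 57.3 in lung and 65.8, 61.4 and 58.9 in muscle. Its ratio was lower in blood than in muscle (log2 -1.18, limma adjusted p = 0.000626), and the 3 tissues do not overlap.

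After heat, few _AS rows moved beyond the spread of the libraries, as was so for the table as a whole. The heat and recovery comparisons of a tissue share its control libraries. In blood, edgeR called 0 of 139 _AS rows at heat and 0 at recovery, where 0% of all 16038 rows were called in each. At an unadjusted p under 0.05 there were 3 and 5, and DESeq2 called 0 in both. Here and below, counts at an unadjusted p and by DESeq2 cover the _AS rows alone. The matching share of all rows is not given, so these counts show no excess of _AS rows. The median log2 change was -0.01 at heat and 0.15 at recovery, against 0.00 and 0.04 for all rows.

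The rows with the smallest p in blood did not overlap between the conditions, and were far from called after adjustment. ENSG00000268500_AS had 16.0, 31.2 and 6.68 CPM at control and 5.33, 5.11 and 6.57 at heat (log2 -1.71, SE 0.56, edgeR adjusted p = 1, and -0.99 without blood control 2), while its sense row had 14.8, 31.7 and 6.90 against 14.1, 6.66 and 14.3. ENSG00000288859_AS had 39.7, 22.5 and 38.5 CPM at control and 19.7, 15.6 and 12.9 at recovery (log2 -1.06, SE 0.34, edgeR adjusted p = 0.826). In a single set of simulated blood libraries with the same spread, 200 of 15668 rows were changed. There edgeR called 0% of rows changed 2-fold and 0% of those changed 4-fold. Whether such changes would be called with more rows changed, or among well read rows, was not tested.

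In lung, edgeR called 0 of 159 _AS rows at heat (0% of all 19149 rows). At an unadjusted p under 0.05 there were 17, with 5 higher and 12 lower, and DESeq2 called 0. ENSG00000203852_AS had 10.6, 25.4 and 22.2 CPM at control and 7.50, 10.7 and 7.43 at heat, where lung control 1 overlaps heat 2 (log2 -1.24, SE 0.34, edgeR adjusted p = 0.572). The median log2 change was 0.04, against -0.03 for all rows.

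In lung at recovery edgeR called 0 of the 159, where 0.047% of all rows were called (0.0157% higher and 0.0313% lower). At an unadjusted p under 0.05 there were 23, with 14 higher and 9 lower, and DESeq2 called 9, with 4 higher and 5 lower. Neither count is comparable with the edgeR share of all rows. The smallest p was that of ENSG00000181896_AS, which has no sense row, at 20.3, 20.3 and 15.5 CPM at control, 23.2, 22.5 and 24.9 at heat and 32.5, 38.4 and 35.9 at recovery. The 3 conditions do not overlap (recovery log2 0.86, SE 0.13, edgeR adjusted p = 0.0689, and 0.0419 without lung control 3). ENSG00000132010_AS had 3.57, 3.55 and 3.52 CPM at control and 1.53, 1.64 and 1.36 at recovery (log2 -1.31, SE 0.28, edgeR adjusted p = 0.156).

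In muscle at heat edgeR called 0 of 106 _AS rows, where 0.0376% of all 15950 rows were called. At an unadjusted p under 0.05 there were 19, with 8 higher and 11 lower, and DESeq2 called 6, all lower. Again no matching share of all rows is given for these counts. ENSG00000197409_AS had 7.32, 11.8 and 9.62 CPM at control and 1.13, 1.37 and 1.85 at heat, with no overlap (log2 -2.67, SE 0.54, edgeR adjusted p = 0.0740). The labels do not say what same-numbered libraries share, and their deviations correlated only weakly here, at 0.168 to 0.202. With the replicate number as a block, ENSG00000197409_AS was the 1 row called (log2 -2.74, edgeR adjusted p = 0.0495). It was also called without muscle recovery 2 or muscle recovery 3, at adjusted p of 0.0488 and 0.0302. Its sense row had 11.7, 14.8 and 11.3 CPM at control and 2.26, 3.58 and 3.59 at heat.

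Muscle at recovery was the one comparison with condition in which edgeR called _AS rows. Of 106, 5 rose and 1 fell, 5.66%, where 2.67% of all rows were called (1.17% higher and 1.5% lower). At an unadjusted p under 0.05 there were 27, with 16 higher and 11 lower, and DESeq2 called 15, with 8 higher and 7 lower. The 2.67% is edgeR's share after adjustment, and no share of all rows is given to set against these counts. The median log2 change was 0.10 for the _AS rows and 0.00 for all rows.

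ENSG00000181896_AS rose from 5.82, 6.87 and 3.99 CPM at control to 20.8, 15.0 and 19.2 at recovery, with 9.43, 8.47 and 10.7 at heat. The recovery libraries all lie above the heat libraries, and those above the controls. The log2 change was 1.73 (SE 0.25, edgeR adjusted p = 0.0141), and it was called in 8 of the 9 fits that left out a library, the exception being recovery 1 (highest adjusted p 0.0681). In blood the row had 3.09, 1.37 and 3.70 CPM at control and 6.77, 2.29 and 9.63 at recovery, which overlap.

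ENSG00000197937_AS rose from 7.57, 6.50 and 7.58 CPM to 15.7, 19.1 and 13.3 (log2 1.16, SE 0.22, edgeR adjusted p = 0.0291). Its sense row had 9.38, 8.28 and 7.97 CPM at control and 8.92, 10.3 and 9.40 at recovery (log2 0.17, edgeR adjusted p = 0.647). In lung the _AS row had 49.0, 61.1 and 42.6 CPM at control and 55.5, 56.9 and 54.1 at recovery, which overlap. ENSG00000196267_AS rose from 1.39, 1.41 and 1.25 to 2.97, 5.95 and 3.34 CPM (log2 1.60, SE 0.38, edgeR adjusted p = 0.0494), with recovery 2 above the other libraries. Its sense row stayed under 0.5 CPM in muscle at both conditions.

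ENSG00000176024_AS rose from 4.59, 4.97 and 4.34 to 8.04, 9.93 and 9.22 CPM (log2 0.98, SE 0.23, edgeR adjusted p = 0.0470). Its sense row had no read in muscle at control or recovery. ENSG00000138185_AS, named after its values were seen because its mean was under 1 CPM, rose from 0.0515, 0.123 and 0.0498 to 0.466, 1.19 and 1.09 CPM (log2 3.55, SE 0.83, edgeR adjusted p = 0.0484), that is from 1, 2 and 1 reads to 8, 23 and 18. Its sense row had 10.8, 14.0 and 9.47 CPM at control and 15.2, 16.7 and 14.7 at recovery.

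The row that fell, ENSG00000203852_AS, is one of the near-equal pairs. It had 3.86, 7.73 and 2.34 CPM at control and 0.816, 0.621 and 0.910 at recovery (log2 -2.55, SE 0.51, edgeR adjusted p = 0.0331). Its sense row fell alike, from 3.61, 7.67 and 2.14 to 0.816, 0.569 and 0.910 CPM (log2 -2.53, edgeR adjusted p = 0.0377). It is the one called row of the 3 with a tested sense row whose partner was called too. The other 3 called rows had no tested sense row.

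The count of 6 rested on all libraries. Leaving out single muscle libraries gave 0 calls without recovery 1, 1 without control 1, control 2 or recovery 2, 2 without control 3, 3 without any 1 of the heat libraries and 5 without recovery 3, of which 2 were among the 6. ENSG00000196267_AS, ENSG00000176024_AS and ENSG00000138185_AS were called in none of those 9 fits (lowest adjusted p 0.0593, 0.0628 and 0.0591), and ENSG00000197937_AS and ENSG00000203852_AS in 4 each.

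**Figure D3:**
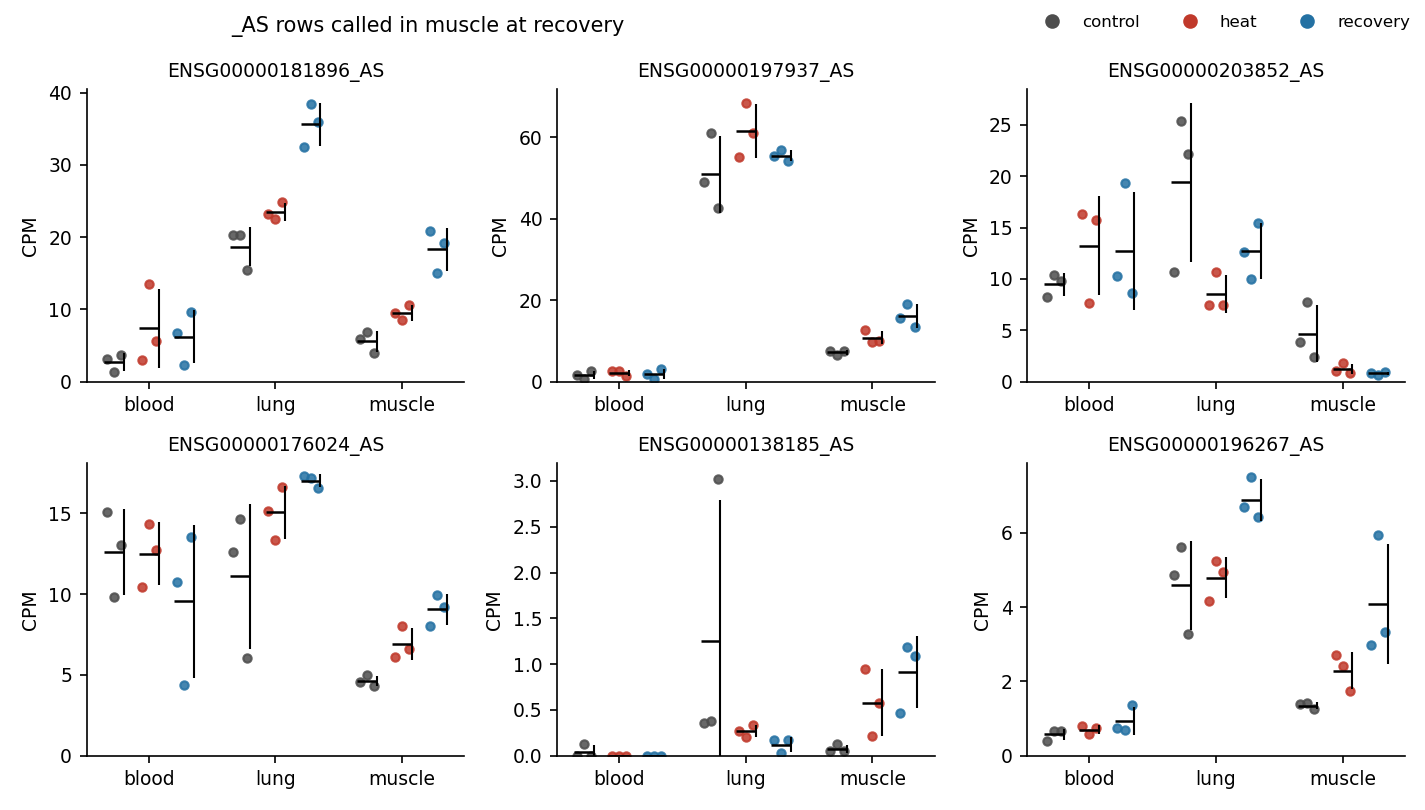
CPM (vertical axis, from 0, scaled for each panel) of the 6 _AS rows called in muscle at recovery, by tissue and coloured by condition, with 1 point per library, a horizontal bar at the mean and a vertical bar of 1 SD (n = 3). In muscle the recovery libraries of 5 rows lie above the controls, and those of ENSG00000203852_AS below.

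Changes of an _AS row and of its sense row went the same way in most pairs. In blood 68 of 100 pairs had the same sign of log2 change at heat (Pearson's r = 0.45, Spearman's rho = 0.46) and 65 at recovery (0.39 and 0.37). In lung the numbers were 85 of 118 (0.46 and 0.47) and 80 of 118 (0.38 and 0.35). In muscle they were 53 of 80 (0.65 and 0.57) and 63 of 80 (0.67 and 0.65). Both rows of a pair come from the same libraries and share their scaling, so no test is given. The near-equal pairs are among those counted. Rows that shared reads would agree by that alone, and whether they do was not tested.

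**Figure D4:**
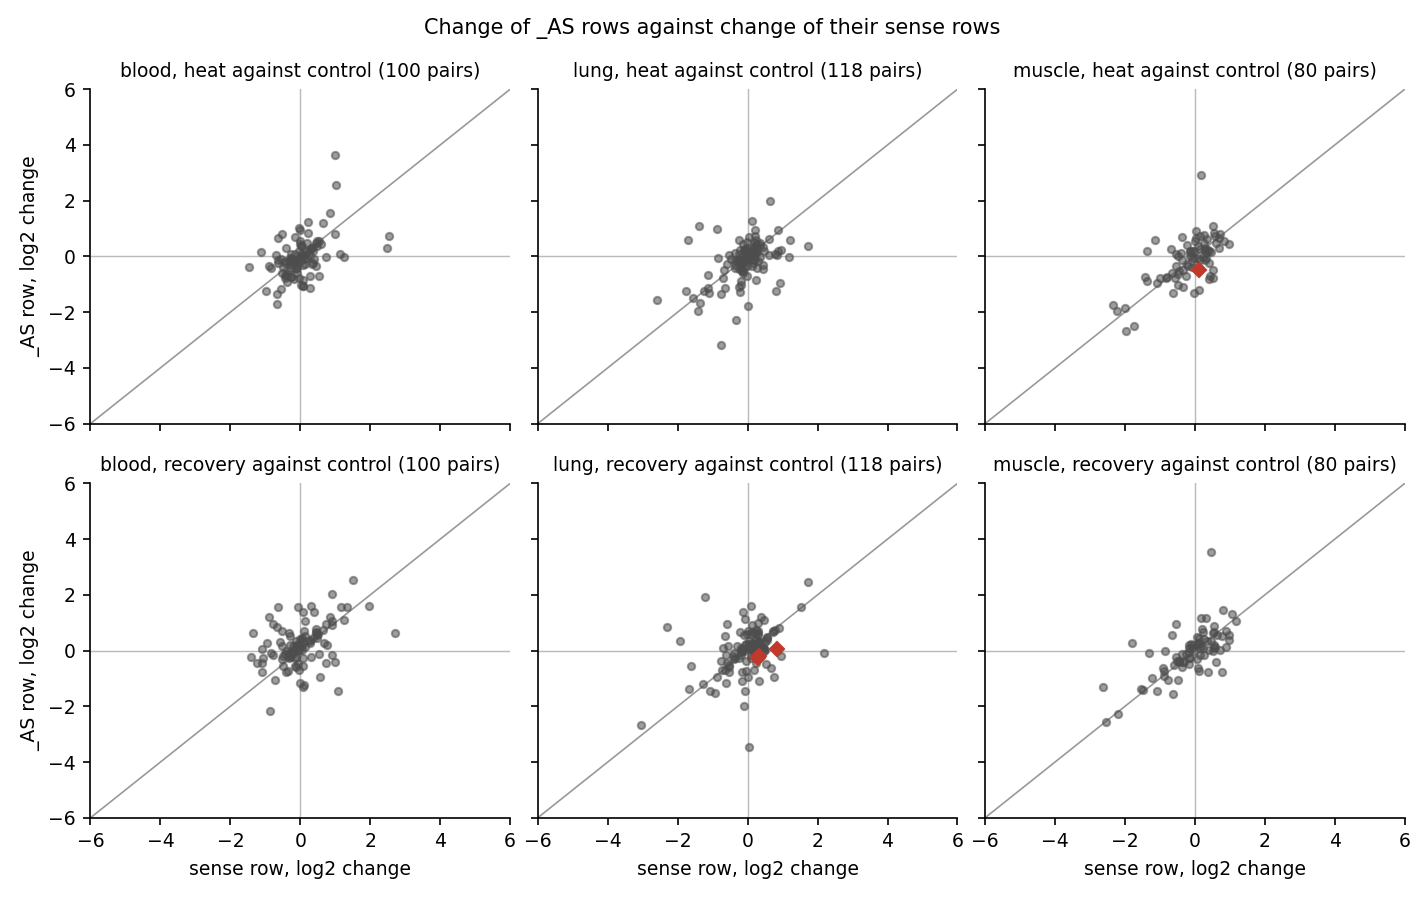
Log2 change of each _AS row (vertical axis) against that of its sense row (horizontal axis), heat against control above and recovery against control below, for the tested pairs of each tissue (1 point per pair, line of equal change). Red diamonds mark pairs whose ratio was called by limma, 1 in muscle at heat and 3 in lung at recovery, and most points lie near the origin.

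The ratio of _AS to sense reads was called in 2 of the 6 comparisons with control. In muscle at heat limma called 1 of 80 pairs (1.25%), lower, and in lung at recovery 3 of 118 (2.54%), all lower. It called 0 in blood at heat and at recovery (4 and 5 pairs at an unadjusted p under 0.05, of 100), 0 in lung at heat (12 of 118) and 0 in muscle at recovery (12 of 80). DESeq2 was not run on ratios.

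The muscle pair was ENSG00000126561. It had 65.8, 61.4 and 58.9 _AS reads per 100 sense reads at control, 40.8, 44.0 and 37.9 at heat and 44.8, 51.3 and 48.9 at recovery. The heat and recovery libraries all lie below the controls. The log2 ratio fell by 0.60 at heat (SE 0.08, limma adjusted p = 0.00266), and it was called in all 9 fits that left out a library (adjusted p up to 0.0383). With the replicate block 2 pairs were called, this one among them (adjusted p = 0.0204). At recovery the change was -0.36 (limma adjusted p = 0.0609). Neither row was called alone at heat, with log2 changes of -0.48 for the _AS row and 0.12 for the sense row (edgeR adjusted p = 0.161 and 0.654).

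ENSG00000126561 was also among the 3 pairs in lung, at 49.4, 45.0 and 57.3 _AS reads per 100 sense reads at control, 41.8, 36.3 and 37.6 at heat and 35.8, 36.3 and 33.0 at recovery (recovery log2 -0.52, SE 0.10, limma adjusted p = 0.0473). The pair ENSG00000197937 went from 1258, 1391 and 1095 _AS reads per 100 sense reads at control to 671, 855 and 761 at heat and 732, 698 and 746 at recovery (recovery log2 -0.77, SE 0.13, limma adjusted p = 0.0456). Here the sense row differed more, at 3.89, 4.40 and 3.89 CPM at control and 7.58, 8.15 and 7.26 at recovery, without overlap (log2 0.84, edgeR adjusted p = 0.156). The pair ENSG00000138623, named as the third of 3, went from 16.1, 14.0 and 13.1 to 10.9, 9.07 and 10.1 (log2 -0.53, limma adjusted p = 0.0473). None of these 3 was called in more than 1 of the 9 fits without a library.

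In muscle the ratio of the pair ENSG00000197937 lay the other way, at 80.8, 78.5 and 95.0 _AS reads per 100 sense reads at control and 176, 186 and 141 at recovery (log2 0.97, limma adjusted p = 0.0609). In blood it had 180, 76.9 and 282 at control, from 10 to 48 _AS reads a library. In blood the ratio of ENSG00000126561 overlapped between the conditions, at 29.0, 22.7 and 31.4 at control, 22.5, 24.3 and 25.7 at heat and 20.6, 37.4 and 23.4 at recovery.

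**Figure D5:**
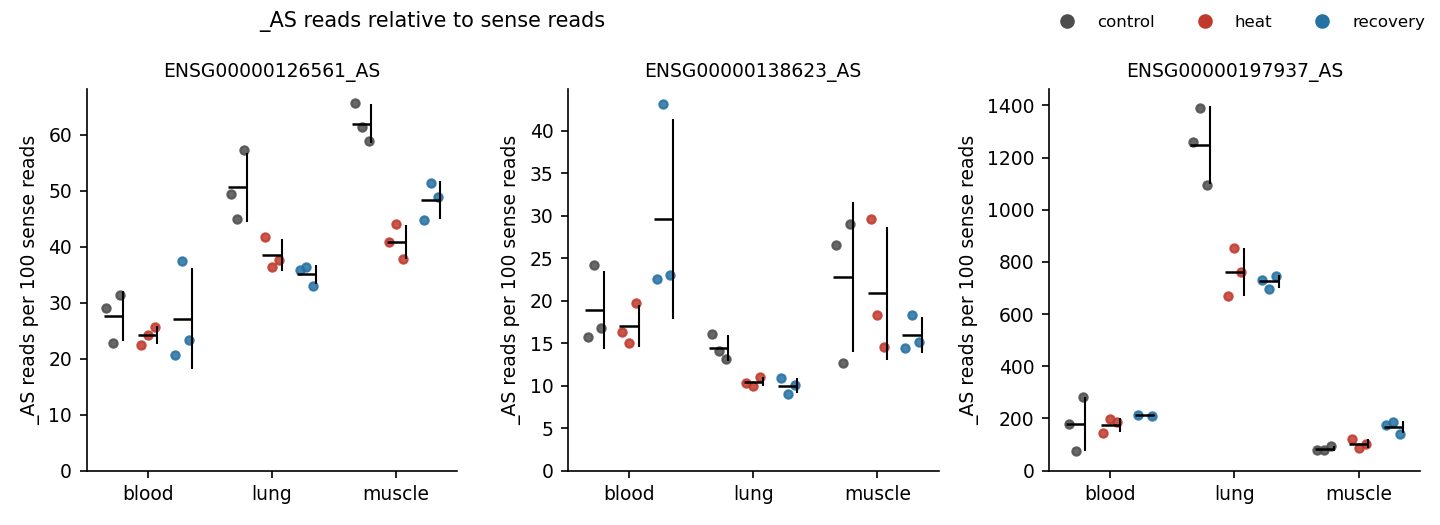
_AS reads per 100 sense reads (vertical axis, from 0, scaled for each panel) for the 3 pairs whose ratio was called in lung at recovery, by tissue and coloured by condition, with 1 point per library with sense reads, a horizontal bar at the mean and a vertical bar of 1 SD. For ENSG00000126561 the muscle controls lie between 58.9 and 65.8 and all muscle heat and recovery libraries below them.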

How the data were processed

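The authors deposited raw read counts per row, 1 column per library. STAR 2.7 and featureCounts are listed as the tools, per the submitters' processing notes. The only build listed is the mouse GRCm39, also for the bat samples, and the bat assembly, annotation and strand setting are not given in the sources used here. Per the labels' protocols, TRIzol RNA went into a directional NEBNext Ultra library kit. Whether a read could count for both an _AS row and an overlapping sense row is not given either, and was not tested.

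Members and lists were chosen with earlier results of these data known. Each tissue was fitted over its 9 libraries (and the 9 controls for tissue comparisons) with edgeR 4.0.16 in R 4.3.3: filterByExpr (minimum count 10, minimum total 15), TMM, robust quasi-likelihood test, Benjamini-Hochberg over all rows tested, called under 0.05. SE is the log2 change over the root of F. Ratios were log2 CPM differences (prior count 2), tested with limma 3.58.1 (trend, robust) over pairs that passed the filter. DESeq2 1.42.0, edgeR's RLE scaling, no filter, a prior count of 0.5, pairs of at least 1 CPM, a replicate block and leaving out each library were alternatives. No 2 libraries of a group were copies: the squared difference was at least 24.9 times counting error.

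Named rows were the 5 highest per control tissue, called rows with the largest change (mean of at least 1 CPM, no overlap), the smallest p where none was called, and the called ratios with the smallest p. At most 2 unnamed identifiers per direction and tissue comparison are given, and the opposite and near-equal pairs were named after their values were seen. A test on simulated counts gave the share of rows with a 2-fold and a 4-fold change that passed in edgeR: 0 and 0% in blood heat against control (15668 rows), 24 and 59% in lung (18919), 23 and 79% in muscle (15660), and 1 and 28% in control lung against muscle (18242). Only 200 rows were changed in each, and the adjusted p depends on how many rows change. In the real control lung against muscle comparison 55.3% of all rows were called, so the 1 and 28% do not describe it.

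The pairing check correlated deviations of same-numbered libraries from group means. The labels give the numbers without saying what they share. All 3 correlations passed 0.1 in muscle heat and control (0.168 to 0.202) and in blood recovery and control (0.242 to 0.388). They did not in the other comparisons, so the block is treated as pairing only there. For blood recovery the values above come from the fit without the block, and no blocked value is given. The block was fitted over all 9 libraries of a tissue, and blood heat and control correlated at -0.396 to 0.212.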

Additional observations from a re-analysis of the deposited data

Results flagged for a closer look

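After the data were seen, the change of each _AS row was compared between tissues in a joint fit of the 27 bat libraries (edgeR for 181 _AS rows, limma for 137 pairs, Benjamini-Hochberg adjusted). This fit took a single spread per row or pair for all tissues. In the separate fits the biological coefficient of variation was 0.536 in blood, 0.343 in lung and 0.295 in muscle. The joint p-values may thus be too small where blood enters. For heat, none of the 3 differences between tissues was called for an _AS row or a ratio, where 0% of all 20395 rows were called in each. At an unadjusted p under 0.05 there were 5, 5 and 11 _AS rows and 5, 2 and 8 ratios, and DESeq2 was not run on them. For recovery 4 were called, each a difference between 2 tissues' changes. Of the 181 _AS rows, 1 was called in muscle minus lung (0.559% of all rows), 0 in blood minus lung (0.0147%) and 1 in blood minus muscle (0.319%). These counts are too small to set the _AS rows apart from all rows.

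The recovery change of ENSG00000138185_AS in muscle exceeded that in lung by 6.87 on the log2 scale (SE 1.51, edgeR adjusted p = 0.0449, where 0.559% of all rows were called). Without lung control 3, which held 3.03 CPM against 0.357 and 0.374 in the other lung controls, it was 5.12 (adjusted p = 0.311), and over the 27 fits that left out a library it was called in 10. It was lost without any 1 of the lung or muscle libraries except lung control 1 and 2, and without blood control 3. Its ratio to the sense row differed likewise, by 4.32 (SE 0.93, limma adjusted p = 0.0204), called in 24 of 27 and not without lung control 3 (0.0513), muscle control 3 (0.0557) or muscle recovery 3 (0.0738).

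The recovery change of ENSG00000203852_AS in blood exceeded that in muscle by 3.03 (SE 0.64, edgeR adjusted p = 0.0362, where 0.319% of all rows were called). It was called in 16 of 27 fits and lost without any 1 of blood control 1 and 2, blood recovery 2, muscle control 1 and 2, the 3 muscle recovery libraries, lung heat 1 and 3 and lung recovery 1. The difference ranged from 2.41 to 3.31 over the 27 fits, with adjusted p up to 0.106. In the muscle fit alone the log2 change of the row was -2.55, and in the blood fit alone no _AS row was called.

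The recovery change in the ratio of ENSG00000277157_AS to its sense row differed between blood and muscle. The change in blood exceeded that in muscle by 1.84 (SE 0.40, limma adjusted p = 0.0203). The pair had 48.5, 40.3 and 46.4 _AS reads per 100 sense reads in blood control and 84.5, 158 and 83.8 at recovery. In muscle it had 30.9, 26.7 and 20.5 at control and 11.3, 23.4 and 17.0 at recovery, which overlap. In the muscle fit alone the log2 change was -0.63 (limma adjusted p = 0.384), and in the blood fit alone no ratio was called. The difference was called in 22 of 27 fits. It was lost without blood control 2, blood control 3, blood recovery 2, muscle control 1 or muscle recovery 1, with adjusted p up to 0.0976.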

How the results depend on the processing

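Over all named changes and ratios and all alternatives run, 830 values kept their direction and side of the threshold, 68 lost and 11 gained significance, and 0 reversed. The total pools calls with rows never called, which cannot lose significance, and with tissue differences. It does not measure the stability of the calls by condition. In muscle recovery ENSG00000181896_AS was called in 8 of 9 fits without a library, ENSG00000197937_AS and ENSG00000203852_AS in 4, and ENSG00000196267_AS and ENSG00000176024_AS in 0. The muscle heat ratio of ENSG00000126561_AS was called in 9, and each lung recovery ratio in at most 1. Counts of called _AS rows moved by over 1.5 times in 3 comparisons. In lung at recovery DESeq2 called 9 in place of 0 (0 to 1 without single libraries). In muscle at heat there was 1 without the filter, 1 with the replicate block and 6 with DESeq2 in place of 0 (0 to 2 without single libraries). In muscle at recovery there were 3 with the replicate block and 15 with DESeq2 in place of 6 (0 to 5). Called ratios in lung at recovery went from 3 to 0 with the replicate block (0 to 1 without single libraries). In muscle at heat they went from 1 to 2 with the block and to 3 over pairs of at least 1 CPM (1 to 2). In muscle at recovery they went from 0 to 3 with a prior count of 0.5 (0 to 3). The cause of these moves was not tested. Without the most read row the share of counts was 0.194% in blood control, 0.197% in blood heat, 0.280% in blood recovery and 0.245% in lung heat. RLE scaling moved the median of all rows by under 0.1 log2. Leaving out the near-equal pairs, or ratios of pairs with under 30 reads in a group, both chosen after the data were seen, moved no total past 1.5 times. By direction, leaving out the near-equal pairs took the rows that fell in muscle at recovery from 1 to 0, and the read minimum took the ratios lower in lung than in muscle from 4 to 2. The spread between libraries was widest in blood, with a biological coefficient of variation of 0.536, against 0.343 in lung and 0.295 in muscle, and lung held the shallowest library.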
